A study of Mus musculus with 8 samples.

Results

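Homeostatic microglia genes are here genes expressed by resting microglia, the resident macrophages of the brain. Some are used to recognise these cells, and others are shared with further cells of the blood lineage. The 9 genes described here are P2ry12, P2ry13, Tmem119, Cx3cr1, Csf1r, Aif1, Trem2, Tyrobp and Fcer1g. The group was set by gene name, with no threshold on signal, and all 9 were measured, each by 1 probe set that the platform annotation pairs with that symbol alone, among 19938 genes with such a probe set. Brain lysates of male mice aged 2 to 4 months were profiled on Affymetrix Mouse Gene 1.0 ST arrays, which read a gene through a set of short probes and give a log2 signal. The compared groups were 4 arrays labelled TNF-/-, from mice lacking the cytokine tumour necrosis factor, and 4 labelled TNF+/+ from C57BL/6 mice; the allele and the strain behind TNF-/- are not in the labels, and they list no treatment. RNA came from frozen brains. Each array is a biological replicate per the titles, which do not say whether groups were littermates.

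Microglia are kept alive by signals through the receptor CSF1R, and they survey neurons with fine processes that are steered by nucleotides through P2RY12. CX3CR1 receives fractalkine, a chemokine made by neurons. TREM2, a lipid-sensing receptor, has no signalling tail of its own and passes its signal through TYROBP, an adaptor that carries an activation motif called ITAM and that resembles FCER1G, the gamma chain shared by several Fc receptors. The study asked, among other questions, whether cell composition of the brain differs without TNF. In lysates of whole tissue, fewer microglia and less RNA per microglial cell cannot be told apart.

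Every direction below is that of arrays as labelled, because Tnf itself was brighter where the labels say it is missing. Tnf signals were 5.67, 5.87, 5.92 and 6.21 in arrays labelled TNF-/-, against 4.48, 4.93, 4.24 and 4.47 in those labelled TNF+/+ (difference 1.39 ± 0.16 on the log2 scale, SE; limma, adjusted p = 0.0278). The groups did not overlap; with 1 array left out the difference was 1.29 to 1.52 and the adjusted p 0.0321 to 0.114, under 0.05 only without TNF+/+ array 2. The position of these probes relative to the deletion is not known here, and probes outside it would check nothing. Array medians lay between 5.03 and 5.11. TNF+/+ arrays 3 and 4 stood apart on the first principal component, which held 24% of the variance, with scores of 22.05 and 37.22 against -4.29 or lower in the other 6 arrays. TNF+/+ array 1 had a signal of 8.21 for Gabra6, a gene of cerebellar granule cells, against 4.01 to 4.34 in arrays labelled TNF-/- and 4.12 to 4.42 in the other TNF+/+ arrays. The tissue was brain by its neuronal markers: the mean of 10 neuron genes was 10.59 to 10.63 in arrays labelled TNF-/- and 10.55 to 10.66 in those labelled TNF+/+.

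Sequences upstream of 4 of the genes are shown because they belong to the largest differences described below: the neighbouring receptor genes P2ry12 and P2ry13, the adaptor gene Fcer1g, and Aif1. Each is the 250 bases before the annotated start in RefSeq on GRCm38.p6, read 5′ to 3′ along the gene. All 4 genes lie on the minus strand. P2ry12 is at chr3:59262986-59263235, P2ry13 at chr3:59210883-59211132, Fcer1g at chr1:171234350-171234599 and Aif1 at chr17:35176053-35176302. Capitals mark the letters GAGGAA or, on the other strand, TTCCTC, a core that PU.1, the lineage transcription factor of macrophages encoded by Spi1, is known to bind.
P2ry12: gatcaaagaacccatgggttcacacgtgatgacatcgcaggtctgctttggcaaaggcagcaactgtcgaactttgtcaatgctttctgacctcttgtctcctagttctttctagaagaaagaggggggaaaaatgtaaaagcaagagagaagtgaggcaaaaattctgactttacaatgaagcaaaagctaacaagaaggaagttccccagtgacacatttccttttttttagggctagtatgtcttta
P2ry13: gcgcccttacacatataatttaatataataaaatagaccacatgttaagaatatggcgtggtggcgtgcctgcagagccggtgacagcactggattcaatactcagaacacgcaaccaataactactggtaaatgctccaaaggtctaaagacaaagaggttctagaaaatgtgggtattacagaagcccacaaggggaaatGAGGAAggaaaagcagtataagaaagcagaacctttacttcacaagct
Fcer1g: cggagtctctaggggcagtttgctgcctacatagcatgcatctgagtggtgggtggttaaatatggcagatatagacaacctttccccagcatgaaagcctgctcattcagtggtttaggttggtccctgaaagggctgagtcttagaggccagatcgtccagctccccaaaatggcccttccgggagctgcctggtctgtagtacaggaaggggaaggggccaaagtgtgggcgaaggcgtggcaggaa
Aif1: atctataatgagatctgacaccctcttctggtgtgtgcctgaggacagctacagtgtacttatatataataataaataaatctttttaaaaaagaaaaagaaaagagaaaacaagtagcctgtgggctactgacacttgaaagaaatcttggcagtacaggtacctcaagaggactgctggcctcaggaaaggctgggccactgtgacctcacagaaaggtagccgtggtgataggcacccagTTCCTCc
The table of promoters matched 6 of the 9 genes. These letters were present in 3 of the 6 (P2ry13, Aif1 and Trem2) and in 23.3% of all 32851 upstream stretches of the same length. A match is a string of letters and no site of binding, and its lack says only that this string is not in the stretch.

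None of the 9 homeostatic microglia genes passed the test. In arrays labelled TNF-/-, P2ry12 and P2ry13 had higher means and the other 7 genes lower means than in those labelled TNF+/+, with a median difference of -0.11 on the log2 scale, from -0.40 for Fcer1g to 0.24 for P2ry13. The median was -0.06 without TNF+/+ array 4. Over all genes the median difference was -0.01, and 52.2% were lower. Limma called 0 of the 9 at an adjusted p under 0.05 (adjusted p = 0.368 to 0.801), where 0.0816% of all probe sets (0.0366% higher and 0.045% lower) and 0.0502% of genes with 1 symbol (0.0351% higher and 0.015% lower) were called. SAM, the test named in the study's design, also called 0 of 9, against 0.149% of all probe sets. At an unadjusted p under 0.05, limma gave 3 of the 9, P2ry13 (higher), Aif1 and Fcer1g (lower), against 11.7% of all genes (7.37% higher and 4.28% lower). Groups overlapped for each of the 9, while 7.66% of all genes had groups that did not overlap (4.16% higher and 3.5% lower). The 95% intervals of the 9 differences ran at their widest from -0.70 for Fcer1g to 0.43 for P2ry13, so a change beyond 0.615-fold downward or 1.35-fold upward lay outside every one of these intervals.

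**Figure D1:**
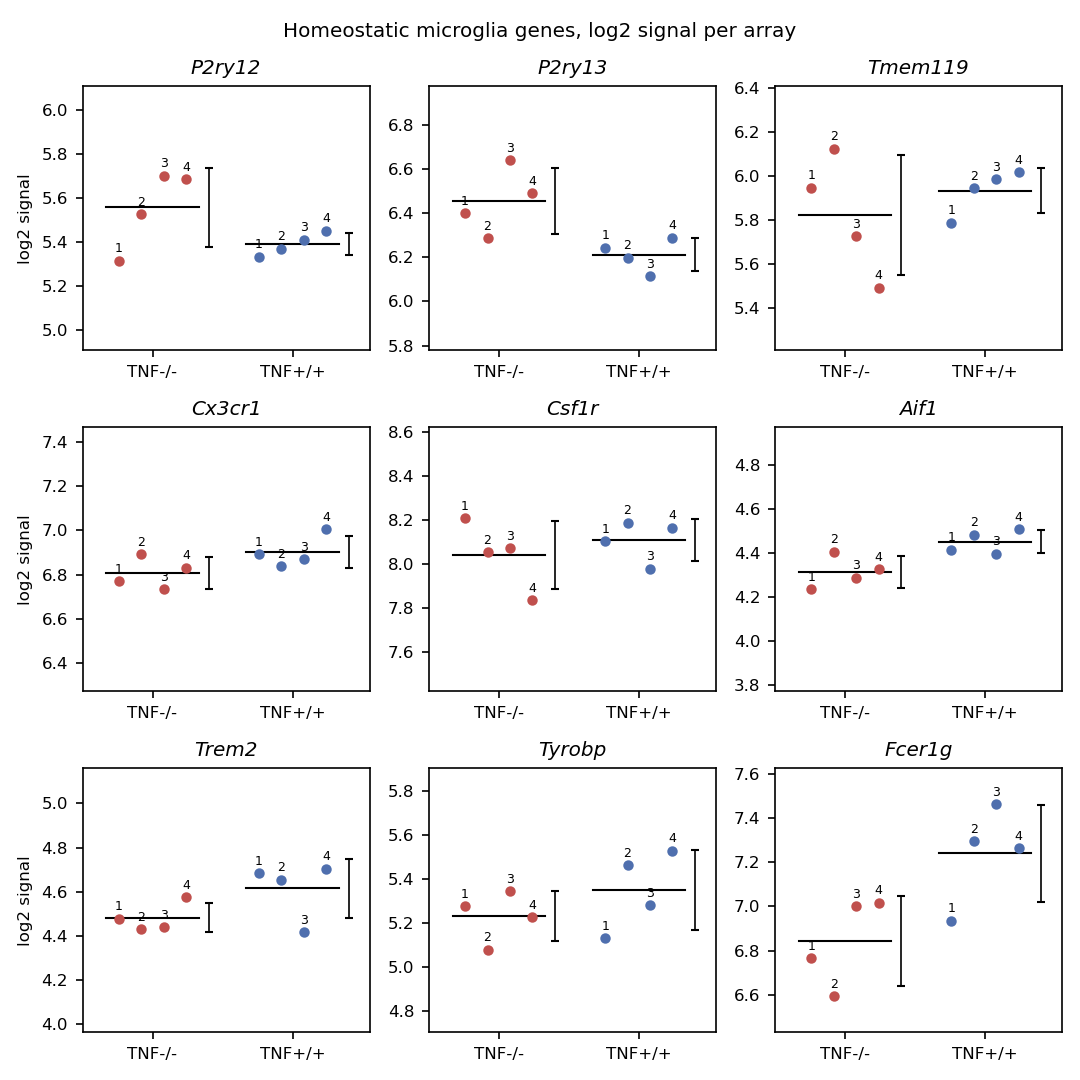
Log2 signal (y axis, 1.2 units tall in each panel) of the 9 genes in 4 arrays labelled TNF-/- (red, left) and 4 labelled TNF+/+ (blue, right), with array numbers, group means as lines and the SD as bars to the right of each group. The groups overlap in all 9 panels, by least in P2ry13 and Aif1.

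The purinergic receptor genes were the ones with higher means. P2ry13, which encodes an ADP receptor, had signals of 6.40, 6.29, 6.64 and 6.49 in arrays labelled TNF-/-, against 6.24, 6.20, 6.11 and 6.29 in those labelled TNF+/+. Arrays 1, 3 and 4 labelled TNF-/- lay above every TNF+/+ array, and array 2 lay 0.0039 below TNF+/+ array 4, so the groups overlapped by that single pair. The difference was 0.24 ± 0.08 (SE; 95% interval 0.05 to 0.43; limma, adjusted p = 0.372), or 1.18-fold. P2ry12, which encodes the ADP receptor of process movement, had signals of 5.32, 5.53, 5.70 and 5.69 in arrays labelled TNF-/-, against 5.33, 5.37, 5.41 and 5.45 in those labelled TNF+/+. Array 1 labelled TNF-/- was the lowest of all 8 and the other 3 the highest. The SD was 0.18 in the arrays labelled TNF-/- and 0.05 in those labelled TNF+/+, and the difference was 0.17 ± 0.09 (95% interval -0.04 to 0.37; limma, adjusted p = 0.543). With 1 array left out it ran from 0.12, without TNF-/- array 3, to 0.25, without TNF-/- array 1.

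P2ry12 and P2ry13 lie next to each other on chromosome 3, with 0 measured genes between them. Beside P2ry13, F630111L10Rik was at -0.14 ± 0.10 (SE), and the receptor genes P2ry14 and Gpr171 were at 0.03 ± 0.06 and -0.01 ± 0.06. Beside P2ry12, Igsf10 was at 0.04 ± 0.15, Gm5709 at -0.02 ± 0.07 and Gm16527 at -0.08 ± 0.05. None of these 6 passed in limma (adjusted p = 0.605 to 0.954).

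The adaptor gene Fcer1g had the largest difference of the 9. Its signals were 6.77, 6.59, 7.00 and 7.02 in arrays labelled TNF-/-, against 6.94, 7.30, 7.46 and 7.27 in those labelled TNF+/+. TNF+/+ arrays 2, 3 and 4 lay above every array labelled TNF-/-, and TNF+/+ array 1 lay among the arrays labelled TNF-/-. The difference was -0.40 ± 0.13 (SE; 95% interval -0.70 to -0.09; limma, adjusted p = 0.368), which is 0.76-fold. It was -0.27 without both TNF+/+ arrays 3 and 4 and -0.50 without TNF+/+ array 1. Fcer1g is also used by monocytes, mast cells and platelets, and the values of these cells' markers are given below.

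Tyrobp, which encodes the adaptor of TREM2, had signals of 5.28, 5.08, 5.34 and 5.23 in arrays labelled TNF-/-, against 5.13, 5.46, 5.28 and 5.53 in those labelled TNF+/+. TNF+/+ arrays 2 and 4 were the highest, and TNF+/+ array 1 was below 3 of the arrays labelled TNF-/-. Its difference of -0.12 ± 0.10 (SE; 95% interval -0.34 to 0.11; limma, adjusted p = 0.682) was close to its SE, and it was -0.06 without TNF+/+ array 4 and -0.19 without TNF+/+ array 1. Trem2 had signals of 4.48, 4.43, 4.44 and 4.57 in arrays labelled TNF-/-, against 4.68, 4.65, 4.42 and 4.70 in those labelled TNF+/+. TNF+/+ arrays 1, 2 and 4 lay above all arrays labelled TNF-/- and TNF+/+ array 3 was the lowest of the 8. The difference was -0.13 ± 0.08 (95% interval -0.31 to 0.04; limma, adjusted p = 0.557).

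Aif1, which encodes the actin-binding protein IBA1 used to stain microglia, had signals of 4.24, 4.41, 4.29 and 4.33 in arrays labelled TNF-/-, against 4.42, 4.48, 4.40 and 4.51 in those labelled TNF+/+. All 4 arrays labelled TNF-/- were below the TNF+/+ mean, and array 2 alone overlapped, by 0.0088. The difference was -0.14 ± 0.06 (SE; 95% interval -0.27 to -0.01; limma, adjusted p = 0.445). Aif1 lies on chromosome 17 with Lst1 and Ltb as the 2 measured genes between it and Tnf, and these differed by -0.09 ± 0.07 and 0.06 ± 0.07. On the other side of Aif1, Prrc2a was at 0.03 ± 0.15, Bag6 at -0.15 ± 0.06 and Apom at -0.01 ± 0.06 (limma, adjusted p = 0.959, 0.445 and 0.965). The signals of Aif1 and Trem2 lay below every array's median, and the 25th percentile of all signals was itself 3.95 to 3.97 in arrays labelled TNF-/- and 4.00 to 4.04 in those labelled TNF+/+. After quantile normalization, which removes that shift, Aif1 differed by -0.11 and Trem2 by -0.12.

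The remaining receptors and Tmem119 differed by less. Cx3cr1, the fractalkine receptor gene, had signals of 6.77, 6.89, 6.73 and 6.83 in arrays labelled TNF-/-, against 6.89, 6.84, 6.87 and 7.01 in those labelled TNF+/+. Arrays 1, 3 and 4 labelled TNF-/- were the lowest of the 8, and the difference was -0.09 ± 0.06 (SE; 95% interval -0.23 to 0.04; limma, adjusted p = 0.597). Csf1r, the gene of the receptor for CSF1 and interleukin-34, had signals of 8.21, 8.06, 8.07 and 7.84 in arrays labelled TNF-/-, against 8.10, 8.19, 7.98 and 8.17 in those labelled TNF+/+. Both the highest and the lowest of the 8 were arrays labelled TNF-/-. The difference was -0.07 ± 0.09 (95% interval -0.27 to 0.13; limma, adjusted p = 0.801), and it was 0.0025 without TNF-/- array 4.

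Tmem119, which encodes a membrane protein used to set microglia apart from blood-derived macrophages, had signals of 5.95, 6.12, 5.73 and 5.49 in arrays labelled TNF-/-, against 5.79, 5.94, 5.98 and 6.02 in those labelled TNF+/+. Arrays labelled TNF-/- again held both extremes, with an SD of 0.27 against 0.10 in TNF+/+ arrays. The difference was -0.11 ± 0.13 (SE; 95% interval -0.41 to 0.19; limma, adjusted p = 0.776), and it was -0.00 without TNF-/- array 4 and -0.21 without TNF-/- array 2. Its neighbour on chromosome 5, Selplg, which is also a gene of microglia, differed by -0.04 ± 0.14.

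**Figure D2:**
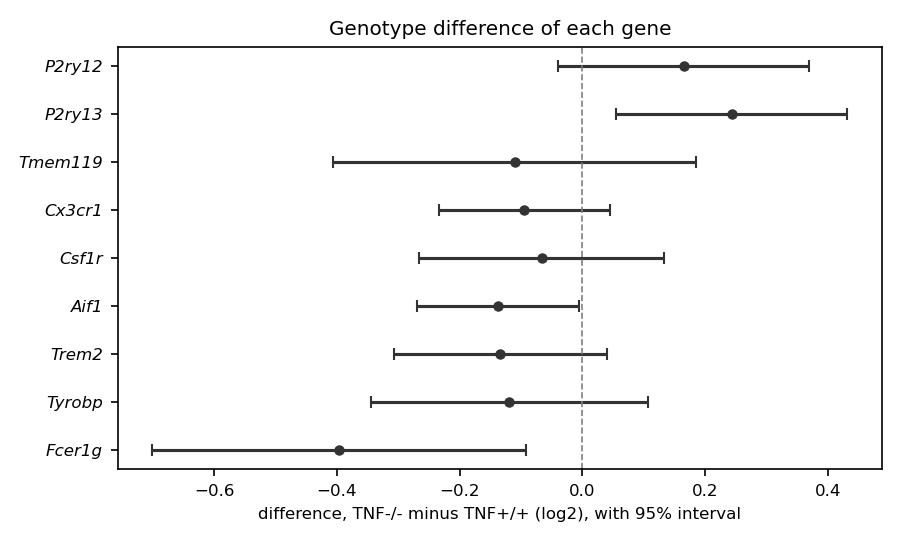
Difference of each gene between arrays labelled TNF-/- and arrays labelled TNF+/+ (x axis, log2), with limma's 95% interval, 4 arrays a group. The points run from -0.40 (Fcer1g) to 0.24 (P2ry13); the intervals of P2ry13, Aif1 and Fcer1g leave out 0 before adjustment for all probe sets, and none of the 9 passed after it.

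Means over genes of 1 role describe the same signals per array. The mean of P2ry12 and P2ry13 was 5.86, 5.91, 6.17 and 6.09 in arrays labelled TNF-/-, against 5.79, 5.79, 5.76 and 5.87 in those labelled TNF+/+, a difference of 0.20. The mean of Trem2, Tyrobp and Fcer1g was 5.51, 5.37, 5.60 and 5.61 in arrays labelled TNF-/-, against 5.58, 5.80, 5.72 and 5.83 in those labelled TNF+/+, a difference of -0.22. For each of these means the groups overlapped. The mean of Cx3cr1 and Csf1r differed by -0.08, and the mean of all 9 genes by -0.07, at 5.95 ± 0.03 in arrays labelled TNF-/- and 6.02 ± 0.07 in those labelled TNF+/+ (SD, n = 4 each).

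**Figure D3:**
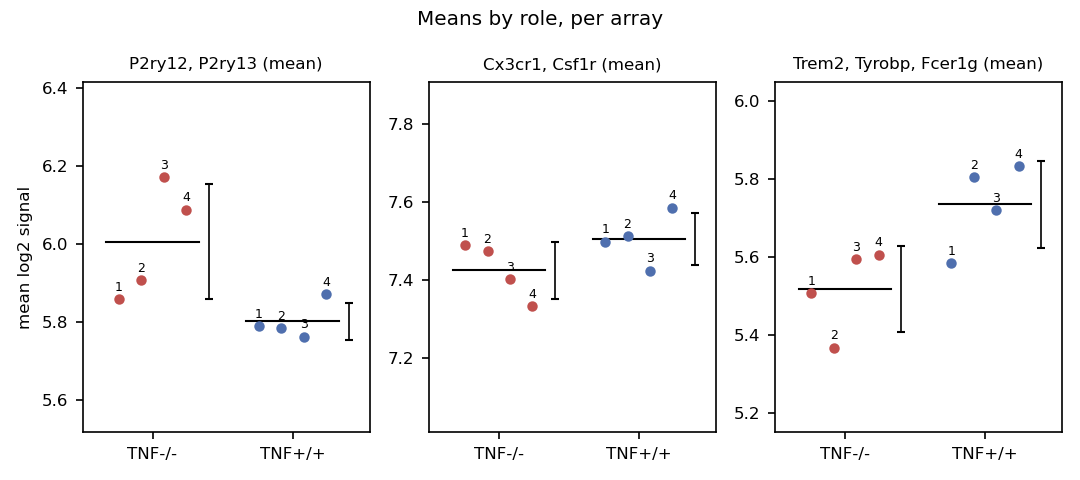
Mean log2 signal per array of the purinergic receptor genes, of Cx3cr1 and Csf1r and of Trem2 with the adaptor genes (y axes, log2, 0.9 units tall), in arrays labelled TNF-/- (red, left) and TNF+/+ (blue, right), with array numbers, group means and SD bars. The groups overlap in all 3 panels.

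The 9 genes also varied from array to array in different ways within a group. Of the 36 pairs, 21 had a positive and 15 a negative Pearson's r of deviations from group means over the 8 arrays, with a median of 0.10, from -0.63 to 0.70. The highest were Cx3cr1 with Aif1 (0.70), Tyrobp with Fcer1g (0.59), Tmem119 with Csf1r (0.57), P2ry12 with Fcer1g (0.56) and P2ry12 with P2ry13 (0.54). The lowest were P2ry12 with Csf1r (-0.63), P2ry13 with Tmem119 (-0.62) and P2ry12 with Tmem119 (-0.50). TNF-/- arrays 3 and 4, for example, had the highest P2ry12 and the lowest Tmem119 signals of their group. The points share arrays and scaling, and with 8 arrays these values are a description only.

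**Figure D4:**
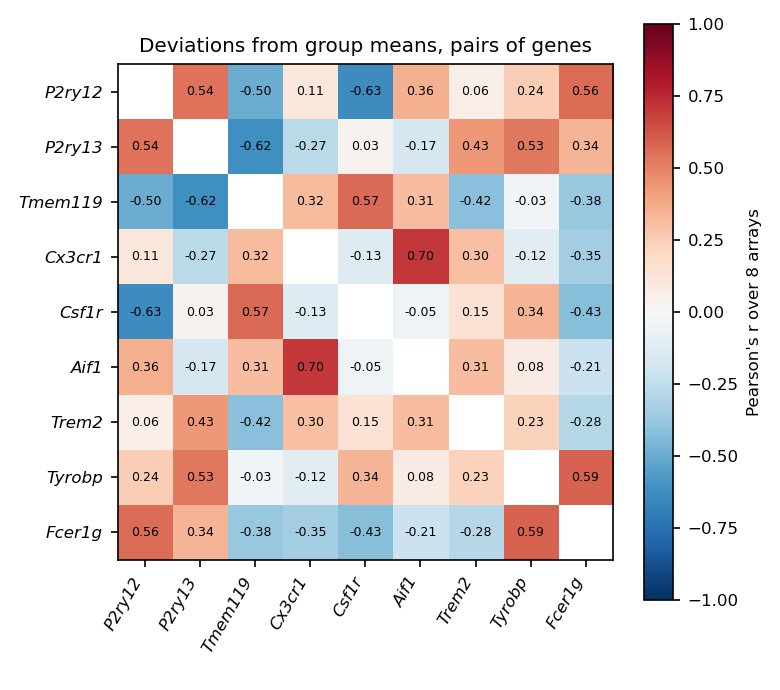
Pearson's r over 8 arrays of deviations from group means for the 36 pairs of the 9 genes (colour from -1, blue, to 1, red, with the value in each cell). The highest values are those of Cx3cr1 with Aif1 (0.70) and Tyrobp with Fcer1g (0.59). The lowest are those of P2ry12 with Csf1r (-0.63) and P2ry13 with Tmem119 (-0.62).

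Genes with the most similar array pattern were sought among genes brighter than the median probe set, by Pearson's r of deviations from group means over 8 arrays. For the mean of the 9 genes these were Eci1 (0.99), Zscan20, Psmd9 and Mrrf (0.97, 0.97 and 0.96), Trpv2 (0.96) and Creg1 (0.96) among 10667 candidates. In all, 53 candidates had an r beyond 0.9 in size with this mean, and 28 (Cx3cr1) to 221 (P2ry12) had with single genes. The closest single matches were Elp3 and Gart for P2ry12 (0.99 and 0.98), Ppm1f and Ggcx for P2ry13 (0.98 and 0.97), Taf4 and Tln1 for Tmem119 (0.97 and 0.97) and Dnaja2 and Anxa6 for Cx3cr1 (0.96 and 0.95). For Csf1r they were Tnks1bp1 and Mllt6 (0.99 and 0.97), for Aif1 Ngly1 and Tcp1 (0.96 and 0.95), and for Trem2 Ublcp1 and Tmem81 (0.99 and 0.97). For Tyrobp they were Rassf3 and Napa (0.97 and 0.96), and for Fcer1g Dbi and Ctsf (0.99 and 0.98). All are the best matches among many candidates over 8 arrays, so a high r is a description only. How many genes would reach such an r by chance was not tested.

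Of 27 genes in a second list of genes of resting microglia 25 were measured, of which 16 were higher and 9 lower in arrays labelled TNF-/-, with a median difference of 0.06 against -0.11 for the 9 genes and -0.01 for all genes. Limma and SAM each called 0 of the 25, and 2 had an unadjusted limma p under 0.05, where 11.7% of all genes had. Cd53, which encodes a leukocyte tetraspanin, was at 0.16 ± 0.07 (SE), C1qa, which encodes a chain of complement C1q, at -0.30 ± 0.13, and Hpgds, which encodes a prostaglandin D synthase, at 0.22 ± 0.10 (limma, adjusted p = 0.454, 0.461 and 0.462). The mean of this list was 6.03 to 6.17 in arrays labelled TNF-/- and 6.06 to 6.14 in those labelled TNF+/+. The median was 0.01 after quantile normalization, 0.01 without TNF+/+ array 2 and 0.00158 with dim probe sets left out.

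Among genes of ligands of the receptors and of processing enzymes, the largest differences were those of enzyme genes, which had slightly higher means. Ligand genes went both ways. Of 9 measured genes 7 were higher in arrays labelled TNF-/-, with a median of 0.12. None was called by limma or SAM, and 3 had an unadjusted limma p under 0.05, all higher, where 7.37% of all genes were. Adam17, which encodes the protease that releases TNF and sheds TREM2, had signals of 6.98, 7.01, 7.03 and 7.02 in arrays labelled TNF-/-, against 6.91, 6.84, 6.86 and 6.65 in those labelled TNF+/+. These groups did not overlap, and the difference was 0.20 ± 0.07 (SE; limma, adjusted p = 0.372). Nt5e, which encodes the enzyme that turns AMP into adenosine, was at 0.19 ± 0.07 and Adam10, which encodes a protease of TREM2 and fractalkine, at 0.19 ± 0.07 (limma, adjusted p = 0.395 and 0.409). Of the ligand genes, Csf1 differed by 0.03 ± 0.10, Il34 by 0.12 ± 0.09 and Cx3cl1, which encodes fractalkine, by -0.01 ± 0.07. Apoe differed by -0.07 ± 0.07 and Clu by 0.02 ± 0.06.

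Signal relays behind the receptors gave 6 higher and 6 lower of 12 measured, with a median of -0.01 and 0 calls by limma or SAM (0 at an unadjusted limma p under 0.05). Most of these genes were dim. The list means were 4.32 to 4.36 in arrays labelled TNF-/- and 4.31 to 4.39 in those labelled TNF+/+, below every array's median, so small differences say little here. Vav1, which encodes a signalling protein of blood cells, was at 0.13 ± 0.06 (SE), Dock2, which encodes a protein of leukocyte migration, at -0.07 ± 0.05, and Syk, the kinase gene that acts on ITAM adaptors, at 0.09 ± 0.08, or 0.01 without TNF-/- array 2. Transcription factors of microglia gave 3 higher and 6 lower of 9, with 0 calls by limma or SAM. An unadjusted limma p under 0.05 was found for 1 gene, against 11.7% of all genes. That gene was Mef2a, also a gene of neurons, whose groups did not overlap (0.20 ± 0.07; limma, adjusted p = 0.358). Cebpa was at -0.16 ± 0.08, Sall3 at -0.10 ± 0.07 and Spi1, which encodes PU.1, at -0.04 ± 0.09. Other Fc receptor chains and lectins, most of which pair with the gamma chain of Fcer1g (Fcgr2b, in the same list, carries its own inhibitory tail), gave 2 higher and 6 lower of 8, with a median of -0.03. Clec4d was at -0.13 ± 0.06, Fcer1a at -0.06 ± 0.05 and Clec4n at -0.03 ± 0.05, each at signals of 4.01 or lower. Groups did not overlap for 1 of the 8, Clec4d, which was lower, where 3.5% of all genes were lower without overlap. Limma and SAM called 0 of the 8, and 1 had an unadjusted limma p under 0.05, where 11.7% of all genes had.

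Genes that microglia raise in disease gave 12 higher and 9 lower of 21 measured, with a median of 0.01. Limma called 1 of the 21, where 0.0502% of all genes were called. An unadjusted limma p under 0.05 was found for 2, both higher, where 7.37% of all genes were. The call was Lpl, the lipoprotein lipase gene, which rose: its signals were 6.10, 6.05, 6.08 and 6.50 in arrays labelled TNF-/-, against 5.04, 5.19, 5.04 and 4.90 in those labelled TNF+/+. The groups did not overlap, and Lpl differed by 1.14 ± 0.11 (SE; limma, adjusted p = 0.0151). It was also called by SAM, and it is expressed by neurons as well as microglia. With 1 array left out its adjusted p in limma was 0.0293 to 0.0897, above 0.05 without TNF-/- array 1 and without TNF+/+ array 1, 3 or 4. Igf1, a growth factor gene, was at 0.33 ± 0.11 and Lgals3, which encodes galectin-3, at -0.18 ± 0.11 (limma, adjusted p = 0.371 and 0.573).

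**Figure D5:**
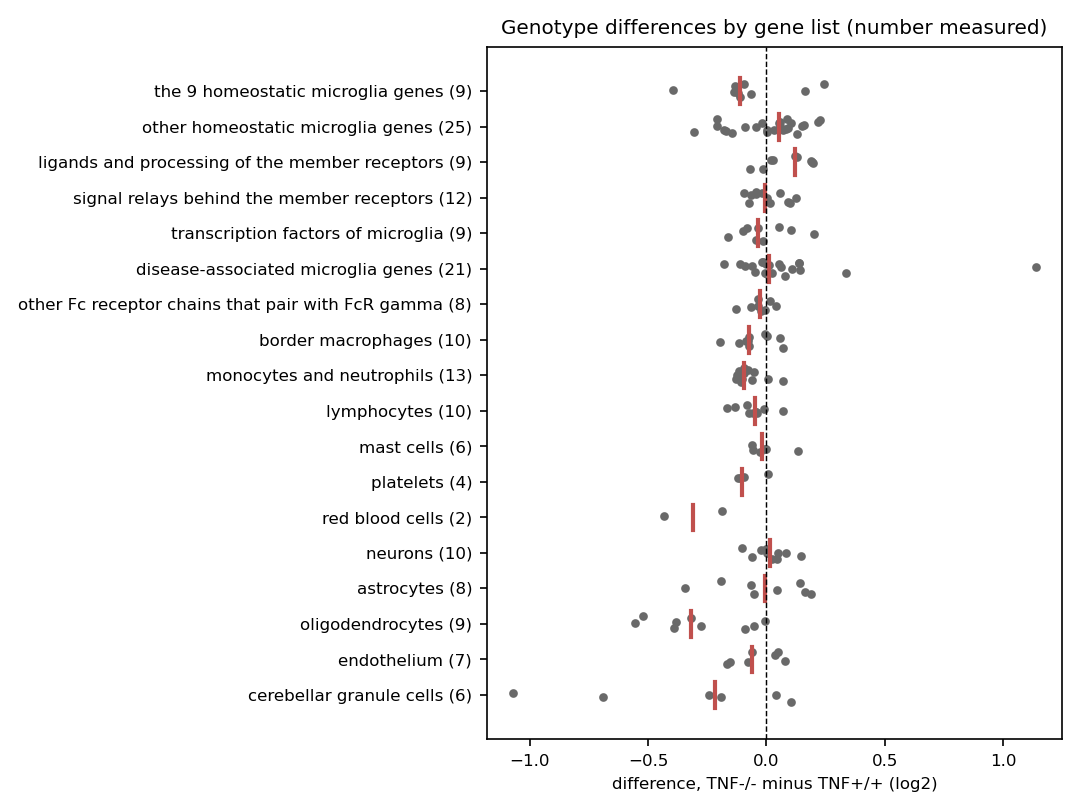
Difference of each measured gene between arrays labelled TNF-/- and TNF+/+ (x axis, log2; grey points) by gene list, with the number measured in brackets and the list's median as a red line. Medians lie between -0.11 for the 9 genes and 0.12 for ligands and processing among the microglial lists, and all 9 measured oligodendrocyte genes and both measured red blood cell genes are lower.

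Markers of blood and border cells were mostly dim on every array. Border macrophage genes gave 3 higher and 7 lower of 10, with list means of 3.93 to 4.02 in arrays labelled TNF-/- and 3.99 to 4.04 in those labelled TNF+/+. Ms4a7 was at -0.20 ± 0.09 (SE), Cd163 at -0.12 ± 0.07 and Cbr2 at -0.07 ± 0.05. Monocyte and neutrophil genes gave 11 lower of 13, with means of 3.81 to 3.85 in arrays labelled TNF-/- and 3.87 to 3.97 in those labelled TNF+/+, which did not overlap. S100a9 was at -0.13 ± 0.07. These means lay close to the 25th percentile given above, and that percentile was itself lower in arrays labelled TNF-/-. After quantile normalization the median difference of this list was -0.062, against -0.095 with values as deposited. What part the shift of dim signals has in it was not tested. Lymphocyte genes gave 9 lower of 10 (Cd8a at -0.16 ± 0.07) with means of 3.83 to 3.85 and 3.87 to 3.94 in the arrays labelled TNF-/- and TNF+/+. Platelet genes gave 3 lower of 4 (Itga2b at -0.12 ± 0.07), mast cell genes 5 lower of 6 (Kit, also a gene of neurons, at 0.13 ± 0.08) and red blood cell genes 2 lower of 2 (Slc4a1 at -0.19 ± 0.06). Limma and SAM called none of these genes. In 3 of these lists 1 gene each was at an unadjusted limma p under 0.05, where 11.7% of all genes were: Ms4a7, Cd8a and Slc4a1. Groups did not overlap for Cd8a and for the monocyte gene Ccr2 (-0.10 ± 0.05), both lower, where 3.5% of all genes were lower without overlap. What part these cells have in the difference of Fcer1g was not tested.

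Among cells of the brain itself, oligodendrocyte genes were lower in arrays labelled TNF-/-: all 9 measured members, with list means of 9.31 to 9.45 in arrays labelled TNF-/- and 9.50 to 9.77 in those labelled TNF+/+. None was called by limma or SAM. An unadjusted limma p under 0.05 was found for 5, all lower, where 4.28% of all genes were. Groups did not overlap for 5, all lower, where 3.5% of all genes were. Opalin was at -0.38 ± 0.07 (SE; limma, adjusted p = 0.139). The highest means of this list were those of TNF+/+ arrays 3 and 4. What part the lower oligodendrocyte genes have in the differences of the 9 microglia genes was not tested. Neuron genes gave 7 higher and 3 lower of 10 (Map2 at 0.15 ± 0.08), astrocyte genes 4 and 4 of 8 (Gfap at -0.34 ± 0.12), endothelial genes 3 and 4 of 7 (Slco1a4 at -0.16 ± 0.12) and cerebellar granule genes 2 and 4 of 6 (Gabra6 at -1.07 ± 0.84). The cerebellar values rest on TNF+/+ array 1: without it Gabra6 was at -0.08, and the median of the list was 0.08 in place of -0.22. Limma and SAM called 0 in each of these lists. Astrocyte genes had 2 at an unadjusted limma p under 0.05, where 11.7% of all genes were, and the other 3 lists had 0. The 2 were Gfap, which was lower, and S100b, which was higher (0.19 ± 0.08).

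The measured genes next to the 9 on their chromosomes, 3 on each side, came to 48 besides the 9 themselves. Limma called 1 of the 48, Tnf, where 0.0502% of all genes were called. An unadjusted p under 0.05 was found for 6, 4 higher and 2 lower in arrays labelled TNF-/-, against 11.7% of all genes. Groups did not overlap for 2, Tnf and Pde6a, which lies near Csf1r on chromosome 18 and differed by -0.09 ± 0.04 (SE; limma, adjusted p = 0.502), against 7.66% of all genes. The differences of the 48 had a median of -0.02. For Trem2 the adjacent genes of its own family, Treml1, Treml2 and Treml4, differed by -0.14 ± 0.08, -0.00 ± 0.06 and -0.12 ± 0.09. For Tyrobp, the adjacent adaptor gene Hcst, which encodes the relative DAP10, differed by -0.06 ± 0.09.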

How the data were processed

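Brain RNA of 8 samples was measured on 8 arrays, 4 labelled TNF-/- and 4 labelled TNF+/+, grouped by the sample titles. The deposited table holds the authors' log2 signal of 35556 probe sets; tools listed per the submitters' processing notes are GCOS, GCRMA and Partek, the log2 scale follows from the values (2.83 to 14.1), and no source used here names a build. Values were used as deposited, with 0 columns left unused and no filter. Gene names came from the platform annotation (21789 probe sets pair with 1 symbol; the brightest represents a gene), and 19856 of 19938 genes matched RefSeq of GRCm38.p6 by gene ID, which gave chromosomes and gene order.

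The main test was two-sided and used limma 3.58.1 (R 4.3.3) with lmFit and eBayes (prior degrees of freedom 2.52). P-values were adjusted across the whole table by Benjamini-Hochberg, with calls under 0.05. SAM was rebuilt with all 70 assignments (s0 0.0357, estimated false discovery rate 4.49%). In a trial on simulated data of 35556 probe sets, limma recovered 61% of 100 changes of 0.5 and 92% of 100 changes of 1 (log2), with 7.27% of calls false. SAM recovered 58% and 88%, with 2.01% false. Noise in the trial was independent between probe sets, unlike in these arrays, and both sizes of change exceeded all differences of the 9 genes. These rates therefore do not say how often a change in the 9 genes would be found. The members and lists were chosen with earlier results of these data known. Named genes follow a rule: the 9 genes, Tnf, neighbours with a call or gap, the 3 (microglial lists) or 1 (other lists) genes of smallest limma p, and the closest array patterns. Il34, Csf1, Cx3cl1, Apoe, Clu, Spi1, Ccr2, S100b, the Trem family, Hcst, Selplg and the neighbours of P2ry12, P2ry13 and Aif1 are named beyond it, from values already seen. Alternatives were other scalings, filters, variance models and weights, the replicate number as a block and leaving out arrays. Plots used matplotlib 3.10.9 in Python 3.11.15.

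Precision is limited by having 4 arrays in a group. The limma p-values set a difference against the spread between these samples, moderated by a prior over all probe sets.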

Additional observations from a re-analysis of the deposited data

Results flagged for a closer look

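Of 124 sets of 4 arrays examined, 6 held a value far from the remaining 3 by Dixon's test; about 6 would stand out by chance alone (1 in 20). They are the mean of the 9 genes in TNF-/- array 3 (5.99), Syk in TNF-/- array 2 (4.20), Lpl in TNF-/- array 4 (6.50), and in TNF+/+ array 1 Cbr2 (3.70), Gabra6 (8.21) and the mean of the cerebellar granule genes (7.26). None of the 9 genes was among them singly.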

How the results depend on the processing

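None of the 9 genes was called in any of the 17 alternative fits or by SAM. Centring on the other homeostatic microglia genes, 1 of these fits, was chosen after seeing the data and could shift a difference by only 0.0062. Each kept its direction in every fit that tested it, except Csf1r, which differed by 0.0025 without TNF-/- array 4 and by -0.12 to 0.0025 with 1 array left out. Aif1 and Trem2 were not tested when dim probe sets were left out. Lowest adjusted p-values over these fits ran from 0.214 for Fcer1g to 0.636 for Tmem119. Each of the 9 has 1 probe set here, so trying another gave no value. Calls among all probe sets numbered 29 in the fit reported, 53 by SAM, 63 among probe sets with 1 gene symbol, 0 without TNF+/+ arrays 3 and 4 (the 9 genes then differed by a median of -0.07), and 1 to 20 with 1 array left out; fewest were left without TNF+/+ array 3. With the replicate number as a block limma called 0, so Lpl (adjusted p = 0.130) and Tnf (adjusted p = 0.129) did not pass, and the calls of the other named genes were unaffected by the block. Same-numbered arrays had deviations correlated at 0.07, 0.11, 0.10 and 0.07, and other-numbered ones at -0.12 to 0.10. TNF-/- array 3 correlated at 0.101 with TNF+/+ array 4 and at 0.097 with its own number. The other arrays labelled TNF-/- correlated best with their own number. The labels do not tie the numbers together, so the main fit did not pair them, and whether they are pairs is not known. The causes were not tested. Median differences of lists that moved by more than their spread were, after quantile normalization, 0.0080 for transcription factors of microglia, -0.030 for border macrophages, -0.011 for lymphocytes, 0.026 for mast cells and -0.059 for platelets, and the difference of Clec4n was 0.011. With dim probe sets left out, so that fewer genes were counted, they were 0.0016 for other homeostatic microglia genes, 0.076 for ligands and processing of the member receptors, 0.10 for transcription factors of microglia, 0.094 for disease-associated microglia genes and 0.13 for mast cells. Without TNF+/+ arrays 3 and 4 they were 0.083 for disease-associated microglia genes and 0.047 for endothelium. With 1 array left out they ran from 0.045 to 0.15 for ligands and processing, from -0.045 to -0.00028 for transcription factors and from -0.13 to -0.059 for platelets.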
